A study of Drosophila melanogaster with 10 samples.

Results

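The proteasome is the barrel-shaped protease that breaks down proteins tagged with ubiquitin, and its subunits were picked out here by gene symbol. The pattern took every probe set of the array that named a single gene beginning Prosalpha, Prosbeta, Rpn or Rpt followed by a digit, and it found 39 genes. Of these, 26 were standard subunits and 13 were paralogues with a T or R suffix, among 10960 features bright enough to be compared. The standard subunits were 12 of the 14 usual members of the 20S core, 7 of 10 of the 19S base and 7 of 8 of the 19S lid. The lid subunit Sem1, whose symbol the pattern does not cover, is not counted among the 8. Prosalpha1, Prosbeta1, Rpt1, Rpt6, Rpn9 and Rpn10 had no probe set that named them alone in the annotation used and were not analysed here. The pattern itself used no measured value, and where several probe sets named a gene the brightest over all lines stood for it.

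In the 20S core, outer rings of alpha subunits gate the entry to a chamber formed by the beta subunits, some of which carry the protease sites. The 19S particle caps the core: the ATPases of its base unfold substrates and thread them into the core, and its lid removes the ubiquitin chain. Heat unfolds proteins, and the proteasome clears those that chaperones do not refold. In flies it is also abundant in the ovary, which makes up much of the body of a laying female.

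The flies were whole adult Drosophila melanogaster females of 5 lines selected for heat resistance and of 5 unselected control lines, each line giving total RNA for 1 array. The series design describes the lines as independent, and errors and p-values below therefore reflect how lines differ from each other. The labels give no allele or transgene, with the flies' age and holding conditions not given in the sources used here. Levels below are log2(intensity + 1) of the authors' normalized probe set signal, and a difference is the mean of the heat-selected lines minus the mean of the control lines. In whole flies, fewer cells of a type and less RNA per cell cannot be told apart.

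Line 1 of both groups stood apart from the other lines in RNA quality. The mean of 3' minus 5' signal over 3 control transcripts of the fly, a measure that grows with degraded or incompletely copied RNA, was 2.76 on the log2 scale in heat-selected line 1 and 2.27 in control line 1. It lay between 1.43 and 1.74 in the other heat-selected lines and between 1.72 and 1.93 in the other control lines. Median intensity lay between 41.9 and 48.3 over the 10 arrays.

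Transcript levels of the standard subunits lay close together in heat-selected and control lines, with small differences that were mostly below 0. No standard subunit passed limma's test at an adjusted p under 0.05 (0 of 26, where 0% of all features passed), nor at an unadjusted p under 0.05 (0 of 26, where 9.52% of all features did). The smallest unadjusted p was 0.102, with an adjusted p of 0.676 from limma. The heat-selected and control lines overlapped for all 26 standard subunits, while 0.785% of all features had separate groups with the heat-selected lines lower and 0.803% with them higher, 1.59% in all. Means were lower in the heat-selected lines for 25 of 26, with a median difference of -0.037 and a range from -0.12 to 0.00090. Over all features 46.3% had a lower mean and the median difference was 0.0075.

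Lower means were also common among other features as bright as the proteasome, though less so than among the subunits. Standard subunits had mean levels from 8.78 to 11.60, and 1782 features lay in that range, the subunits among them. Of these, 64.8% had a lower mean in the heat-selected lines, beside 25 of 26 subunits (96.2%). The median difference of the range was -0.041, close to the -0.037 of the subunits. The part of brightness in the lower means was not tested. Leaving out line 1 of both groups left 19 of 26 subunits with a lower mean (73.1%), beside 63.6% of the features in the same range and 52.5% of all features. The median of the subunits was then -0.045, that of the range -0.044. Without lines 1 and 2 of both groups 15 of 26 subunits were lower.

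**Figure D1:**
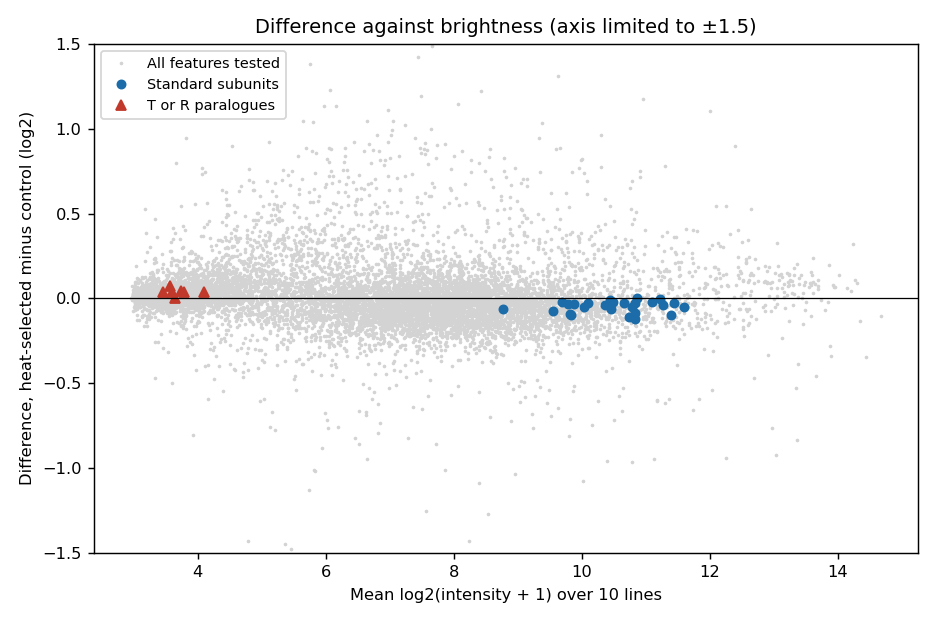
Difference in log2(intensity + 1), heat-selected minus control, against mean level over the 10 lines for all 10960 features (grey), the 26 standard subunits (blue) and the 7 paralogues that passed the filter on dim probe sets (red); 10 features lie beyond the axis limit of 1.5. The subunits sit on the bright side between -0.12 and 0.00090, and the paralogues at the dim edge.

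Lines within a group differed little in these genes. With 1 array for each line, measurement error and differences between lines cannot be told apart. The spread between lines within a group, as a residual SD, had a median of 0.11 over the standard subunits, against 0.16 over the features of the same brightness and 0.15 over all features. It was below the median of that brightness range for 22 of 26. The 95% interval of the difference held 0 for every standard subunit, and it lay inside a 1.3-fold change in either direction for 25 of 26 and inside a 1.5-fold change for 26. The exception at 1.3-fold was Prosalpha6, whose interval ran from -0.51 to 0.28 on the log2 scale.

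**Figure D2:**
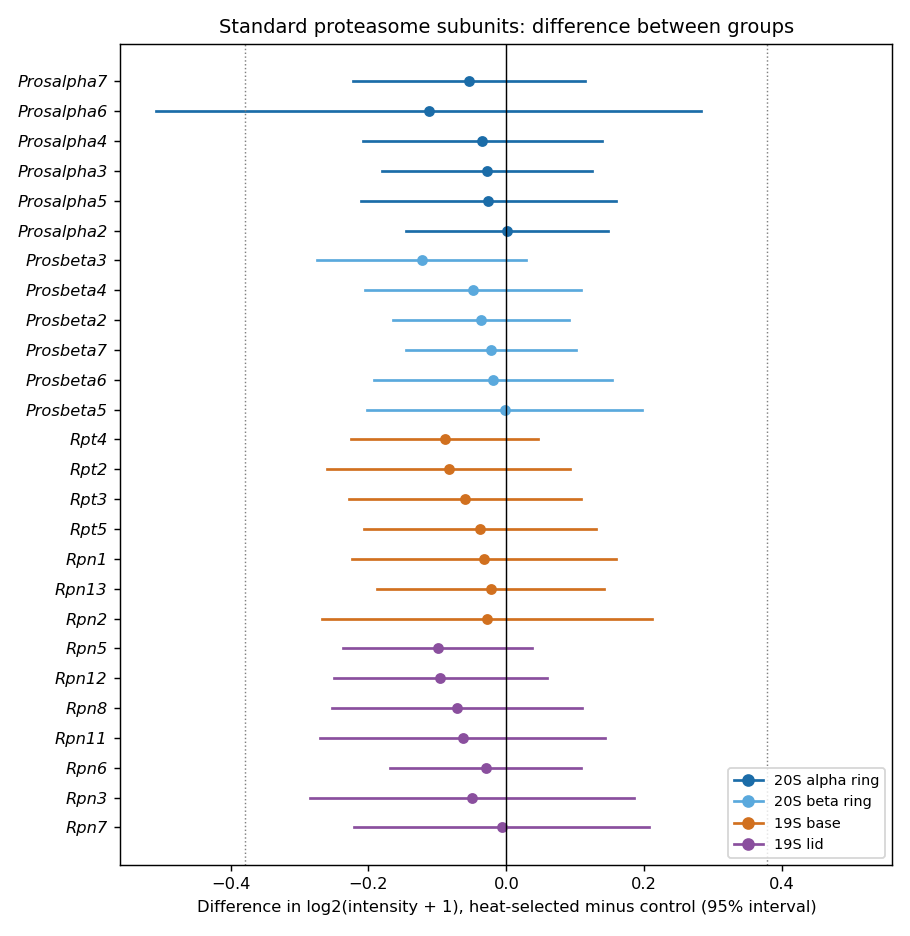
Difference in log2(intensity + 1), heat-selected minus control, for each standard subunit (point) with its 95% interval from limma (bar), n = 5 lines in each group; dotted lines mark a 1.3-fold change. All 26 intervals cross 0, and only that of Prosalpha6 passes the dotted line.

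By particle, the 20S core had 11 of 12 members with a lower mean and a median difference of -0.032, the 19S base 7 of 7 and -0.038, and the 19S lid 7 of 7 and -0.064. Without line 1 of both groups the counts were 9 of 12 in the core, 4 of 7 in the base and 6 of 7 in the lid, with medians of -0.044, -0.056 and -0.062. With any 1 line left out the median ran from -0.043 (without control line 1) to -0.020 (without control line 2) in the core, from -0.077 (without heat-selected line 5) to -0.013 (without heat-selected line 1) in the base and from -0.11 (without control line 1) to -0.013 (without control line 2) in the lid. The ATPases of the base taken alone had a median of -0.072 over 4 genes. Whether these medians differ from each other was not tested. The mean of the core members, each centred on its own mean over all lines, was -0.021 ± 0.040 in heat-selected and 0.021 ± 0.055 in control lines (SD, n = 5 each). That of the base was -0.025 ± 0.074 in heat-selected and 0.025 ± 0.041 in control lines. That of the lid was -0.030 ± 0.084 in heat-selected and 0.030 ± 0.10 in control lines. The core minus the whole 19S particle came to 0.0064 ± 0.048 in heat-selected and -0.0064 ± 0.024 in control lines, so the balance of core and cap did not move beyond the spread. Summed over all standard subunits on the linear scale, intensity was 40852 ± 1201 in heat-selected and 42205 ± 1526 in control lines. The members were spread over the genome in the RefSeq annotation used, with 3 on X, 4 on 2L, 7 on 2R, 4 on 3L and 8 on 3R, and the lone positive difference was that of Prosalpha2 on 3R.

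Of the 3 beta subunits with protease sites, 2 were measured. Prosbeta5, which carries the chymotrypsin-like site, had levels of 11.33, 11.31, 11.09, 11.26 and 11.10 in heat-selected lines 1 to 5, against 11.41, 11.40, 11.11, 11.08 and 11.12 in control lines 1 to 5. Its groups overlapped almost fully, with lines 1 and 2 highest in both, and the difference was -0.0026 ± 0.091 (SE). Prosbeta2, which carries the trypsin-like site, had levels of 11.20, 11.24, 11.25, 11.26 and 11.32 in the heat-selected lines, against 11.25, 11.41, 11.27, 11.24 and 11.27 in the control lines. Control line 2 stood above every other line, and the difference was -0.037 ± 0.058 (SE), or -0.0066 without that line. The caspase-like subunit is encoded by Prosbeta1, which was not analysed here.

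Among the beta subunits without a protease site, Prosbeta3 had the largest difference of all standard subunits. It had levels of 10.82, 10.66, 10.76, 10.87 and 10.78 in the heat-selected lines, against 10.85, 11.08, 10.85, 10.86 and 10.88 in the control lines. Of the heat-selected lines, 4 lay below every control line, and line 4 lay among them. The difference was -0.12 ± 0.069 (SE, unadjusted p = 0.102, adjusted p = 0.676 from limma), and -0.079 without control line 2, the highest. Prosbeta4 had levels of 11.51, 11.40, 11.69, 11.68 and 11.61 in the heat-selected lines, against 11.57, 11.58, 11.58, 11.69 and 11.70 in the control lines. Its difference of -0.049 ± 0.072 was -0.0053 without heat-selected line 2, the lowest of the lines. Prosbeta6 and Prosbeta7 differed by -0.020 and -0.022, and Prosbeta7 had the smallest residual SD of the subunits, 0.048. A second probe set for Prosbeta6 was dim, at a mean level of 4.01 beside 10.50 for the one used, and its difference was -0.044.

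In the alpha ring, Prosalpha6 varied most of all standard subunits, with a residual SD of 0.33. It had levels of 10.12, 10.54, 10.87, 10.90 and 10.97 in the heat-selected lines, against 10.31, 11.08, 10.95, 10.82 and 10.81 in the control lines. Line 1 was the lowest in both groups, and the difference was -0.11 ± 0.18 (SE), or 0.027 without heat-selected line 1 and -0.095 without line 1 of both groups. Prosalpha7 ran the other way, with levels of 10.15, 10.05, 9.91, 9.94 and 10.01 in the heat-selected lines, against 10.23, 10.15, 10.002, 10.01 and 9.93 in the control lines. Line 1 was the highest in both groups, and the difference was -0.054 ± 0.077. It was -0.011 without control line 1, -0.087 without heat-selected line 1 and -0.045 without both. A second probe set for Prosalpha7, at a mean level of 3.17 beside 10.04 for the one used, lay within the range of control probe sets from other organisms. Prosalpha4 had levels of 9.63, 9.81, 9.75, 9.85 and 9.79 in the heat-selected lines, against 9.59, 9.88, 9.80, 9.95 and 9.80 in the control lines, with a difference of -0.035 ± 0.079. Prosalpha2, Prosalpha3 and Prosalpha5 differed by 0.00090, -0.028 and -0.026.

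In the 19S base, the ATPases Rpt4 and Rpt2 had the smallest p-values and neither passed. Rpt4 had levels of 9.77, 9.81, 9.68, 9.72 and 9.89 in the heat-selected lines, against 9.79, 9.92, 9.91, 9.85 and 9.86 in the control lines. Heat-selected lines 1, 3 and 4 lay below every control line, and the difference was -0.090 ± 0.062 (SE, adjusted p = 0.794 from limma). Rpt2 had levels of 10.56, 10.90, 10.76, 10.89 and 10.88 in the heat-selected lines, against 10.74, 10.88, 10.93, 10.91 and 10.94 in the control lines. Line 1 was lowest in both groups, and the difference of -0.084 ± 0.080 was -0.024 without heat-selected line 1. Rpt3 had levels of 8.56, 8.90, 8.76, 8.71 and 8.82 in the heat-selected lines, against 8.88, 8.92, 8.71, 8.73 and 8.80 in the control lines. Its difference of -0.060 ± 0.077 was -0.013 without heat-selected line 1, the lowest line. Rpt5 differed by -0.038.

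Of the other base subunits, Rpn1 and Rpn13 bind ubiquitin or the proteins that carry it. Rpn1, a scaffold that docks shuttle proteins and a deubiquitinase, had levels of 9.67, 9.70, 9.91, 10.09 and 9.95 in the heat-selected lines, against 9.87, 9.81, 10.01, 9.91 and 9.89 in the control lines. The heat-selected lines lay on both sides of the controls, with lines 1 and 2 below all of them and line 4 above, and the difference was -0.032 ± 0.087 (SE). Rpn13, a ubiquitin receptor, had levels of 9.52, 9.76, 9.58, 9.87 and 9.71 in the heat-selected lines, against 9.64, 9.77, 9.73, 9.70 and 9.71 in the control lines. It too spread more widely in the heat-selected lines, at an SD of 0.14 against 0.048 in the control lines, and the difference was -0.023 ± 0.075. Other subunits went the other way, such as Rpn12 of the lid, at an SD of 0.045 in the heat-selected and 0.12 in the control lines. These differences in spread were not tested. Rpn2, the scaffold that holds Rpn13, differed by -0.028 ± 0.11.

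The lid had the lowest median of the particles. Rpn5, a scaffold subunit, had levels of 11.22, 11.40, 11.41, 11.35 and 11.33 in the heat-selected lines, against 11.35, 11.53, 11.46, 11.43 and 11.45 in the control lines. Of the heat-selected lines 3 lay below all control lines, and the difference was -0.10 ± 0.062 (SE, unadjusted p = 0.138, adjusted p = 0.740 from limma). Rpn12 had levels of 9.71, 9.80, 9.82, 9.83 and 9.78 in the heat-selected lines, against 9.94, 10.05, 9.84, 9.86 and 9.71 in the control lines. Heat-selected lines 2 to 5 lay between control line 5 and control line 3, and the difference was -0.096 ± 0.070.

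Rpn11, the metalloprotease that cuts the ubiquitin chain from the substrate, had levels of 10.31, 10.45, 10.47, 10.57 and 10.37 in the heat-selected lines, against 10.26, 10.77, 10.56, 10.47 and 10.43 in the control lines. Its partner Rpn8 had levels of 9.42, 9.58, 9.50, 9.52 and 9.52 in the heat-selected lines, against 9.37, 9.81, 9.52, 9.54 and 9.66 in the control lines. In both genes the highest and the lowest line were controls, line 2 and line 1, and all heat-selected lines lay between them. The differences were -0.064 ± 0.094 for Rpn11 and -0.071 ± 0.083 for Rpn8 (SE). Without control line 2 they were 0.0044 and -0.013. Rpn3, Rpn6 and Rpn7 differed by -0.050, -0.030 and -0.0067.

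The subunits varied by line more than by group. Heat-selected line 1 had the lowest level of all 10 lines for 13 of 26 standard subunits, and control line 2 had the highest for 11. The mean of the standard subunits, centred per gene, was -0.12, -0.011, -0.017, 0.020 and 0.0043 in heat-selected lines 1 to 5. It was -0.046, 0.11, 0.023, 0.022 and 0.011 in control lines 1 to 5. Control line 2 was thus the highest and the lines numbered 1 the lowest, and the remaining lines of both groups overlapped. That mean moved against the 3' excess, with r = -0.76 over the 10 lines after group means were removed, and with r = 0.14 over 8 lines without line 1.

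**Figure D3:**
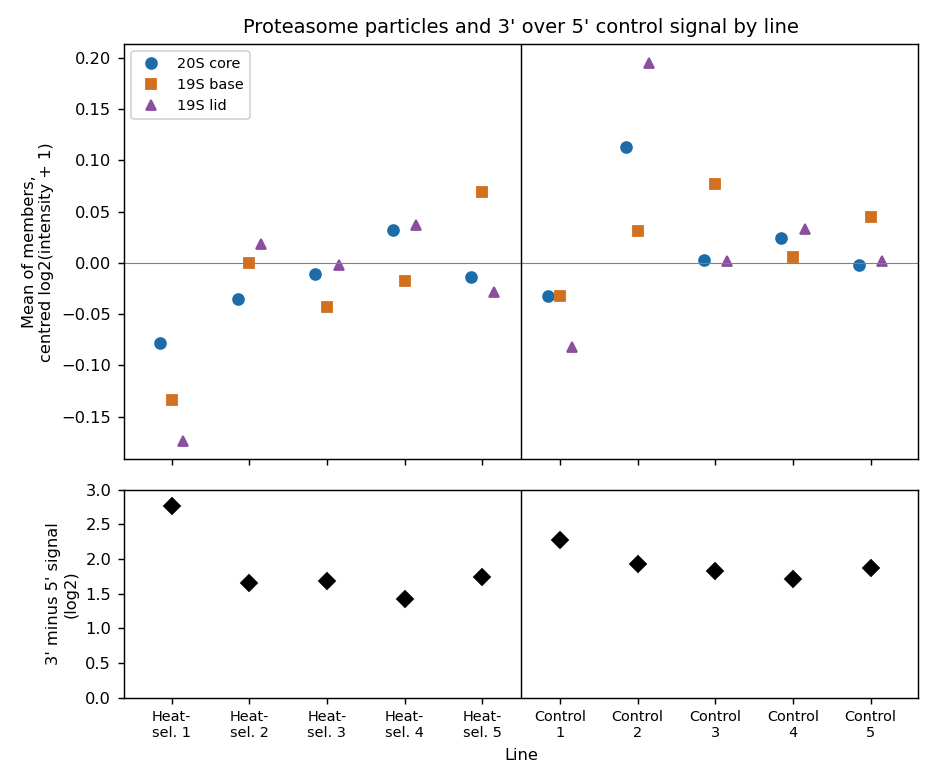
Upper panel, mean of the members of the 20S core, 19S base and 19S lid in each line, as log2(intensity + 1) centred on each gene's mean; lower panel, 3' minus 5' signal of fly control transcripts on the log2 scale, with heat-selected lines left of control lines. Line 1 of the heat-selected group is lowest for all 3 particles and highest in 3' excess, and control line 2 is highest for the core and the lid.

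Line 1 moved the subunits in opposite directions. Levels were lowest in line 1 within both groups for 11 standard subunits and highest in line 1 within both groups for 3, which were Prosalpha5, Prosalpha7 and Prosbeta5. Line 1 was on the same side of the other lines' mean in both groups for 22 of 26. Line 1 minus the mean of the other lines came to -0.70 for Prosalpha6 in the heat-selected group and to -0.61 in the control group. For Prosalpha5 it came to 0.30 in the heat-selected group and to 0.20 in the control group. Across the 10 lines the correlation of a subunit with the 3' excess ran from r = -0.89 for Rpn3 to r = 0.84 for Prosalpha5, and was below 0 for 19 of 26. Over the 8 lines without line 1 it ran from -0.39 for Rpn3 to 0.78 for Rpt5 and was below 0 for 10 of 26. The part of RNA quality in these differences between subunits was not tested.

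**Figure D4:**
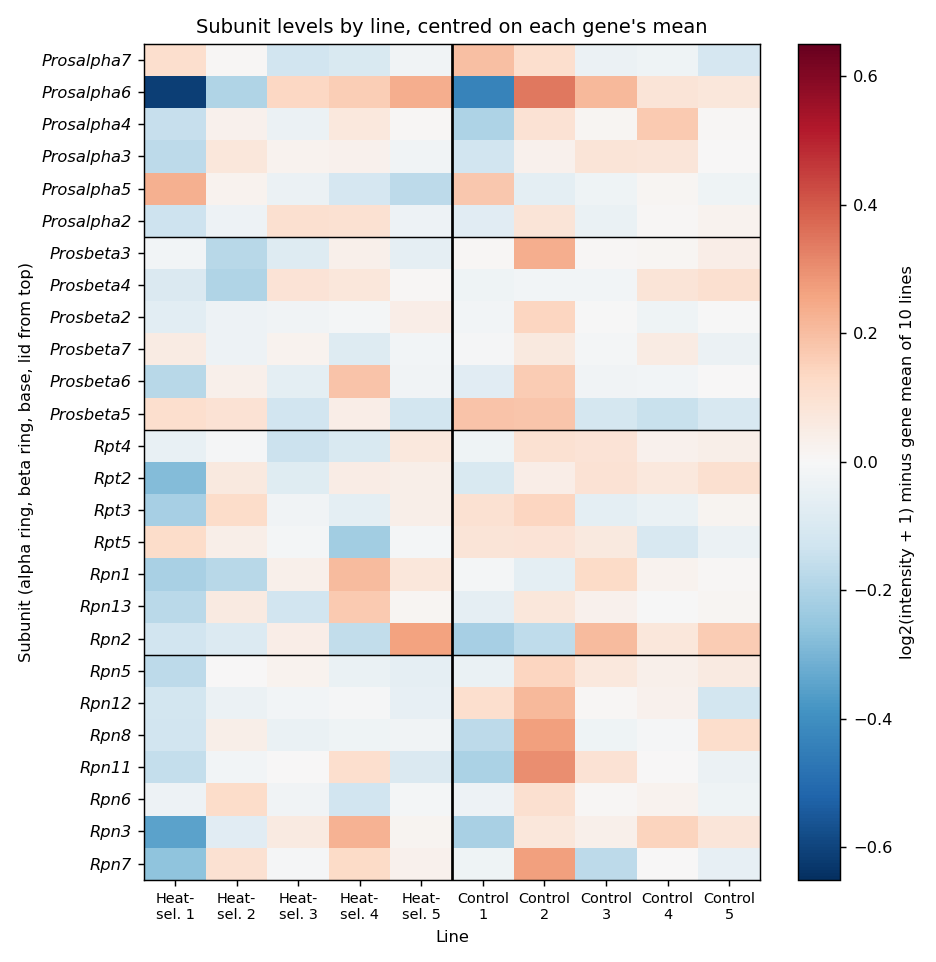
Level of each standard subunit in each line as log2(intensity + 1) minus the gene's mean over 10 lines (colour), with heat-selected lines left of control lines and the alpha ring, beta ring, base and lid from top to bottom. Line 1 of both groups is blue for most subunits and red for Prosalpha5 and Prosalpha7, and control line 2 is red for most.

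Subunits of the lid varied together most closely. With group means removed, the correlation between 2 genes over the 10 lines had a median of r = 0.53 over the 21 pairs within the lid, 0.27 over the 21 pairs within the base and 0.17 over the 66 pairs within the core. It was 0.25 over all 325 pairs of standard subunits and -0.0067 over all pairs of features of the same brightness. Over the 8 lines without line 1 the medians were 0.50 within the lid, 0.11 within the base, 0.14 within the core, 0.13 over all pairs and -0.0057 over the features. The mean of the core followed that of the lid, at r = 0.94 over 10 lines and 0.91 over 8, and the base followed the core less, at 0.38 and -0.27. Control line 2 had the highest mean of all lines for both the core (0.11) and the lid (0.20). The next highest was heat-selected line 4, at 0.032 and 0.037. Correlations without control line 2 were not computed. Prosalpha5 ran against the mean of the other subunits, at r = -0.88 over 10 lines and -0.51 over 8. These values describe lines that share arrays, normalization and RNA quality, and they carry no test.

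Likeness to the mean of the standard subunits was common on these arrays. Over the 10 lines with group means removed, the median r of the 10927 features outside the proteasome was 0.26, and 5% of them exceeded 0.87. The named genes most like it were CG42813 (r = 0.99), Cog8, a subunit of a Golgi tethering complex (0.98), and TyrRS, which charges tyrosine tRNA (0.97). The genes ohgt, CG13551, asrij, MRG15 and Septin2 followed at 0.96 to 0.97, with 2 probe sets without a gene name among them. Without line 1 the r of these 10 features was 0.89 to 0.98. Proteasome genes outside the pattern were spread across the whole range: rngo, the fly relative of a ubiquitin-binding shuttle protease, reached r = 0.96, and Pomp, a maturation factor of the core, had r = -0.76, which was 0.20 without line 1.

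The paralogues with a T or R suffix, most of them known in flies as testis forms of the standard subunits, were at or near the floor of the arrays in these females. Of 13, 7 passed the filter on dim probe sets, a log2 level above 3 on at least 5 arrays. Their mean levels ran from 3.46 to 4.09, where 23 probe sets of other organisms reached 3.64. Rpn13R was the brightest, with levels of 4.03, 4.00, 4.09, 4.32 and 4.12 in the heat-selected lines, against 3.87, 4.17, 4.14, 4.06 and 4.14 in the control lines. Prosbeta4R1 had levels of 3.53, 3.60, 3.77, 4.01 and 3.92 in the heat-selected lines, against 3.40, 3.86, 3.82, 3.75 and 3.78 in the control lines. Both were lowest among controls in line 1 and highest of all in heat-selected line 4. Prosalpha6T, Prosbeta4R2, Rpn12R, Rpt3R and Rpt4R had values from 3.20 to 3.95 over all lines.

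None of the 7 passed the test at an unadjusted p under 0.05, where 9.52% of all features did. At that share 0 of 7 says little about the paralogues. Their differences ran from 0.00020 for Rpt3R to 0.073 ± 0.099 (SE) for Rpn12R. The median of 0.038 was -0.022 without control line 1 and 0.012 without line 1 of both groups. The mean level of the 7 followed the mean of the probe sets of other organisms at r = 0.995 over the 10 lines. The 6 paralogues that did not pass the filter, Prosalpha3T, Prosalpha4T1, Prosalpha4T2, Prosbeta2R1, Prosbeta2R2 and Prosbeta5R1, had mean levels from 2.05 to 2.95. At such levels the arrays do not show whether a paralogue differed. Of 14 measured testis genes, 3 had mean levels at or below 3.64, that highest single value of the probe sets of other organisms. A lower mean in the heat-selected lines was found for 5 of the 14, beside 46.3% of all features.

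**Figure D5:**
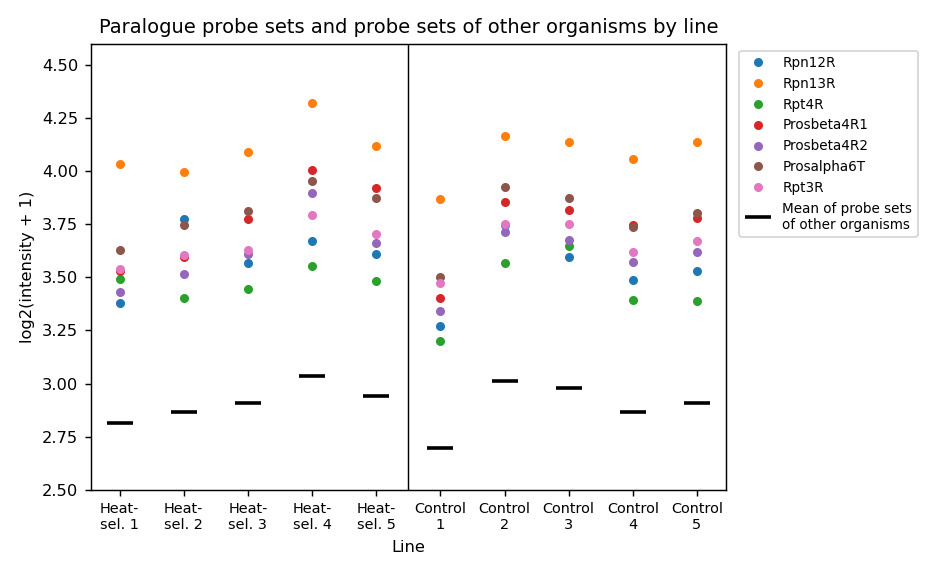
Level of the 7 paralogues that passed the filter, as log2(intensity + 1), in each line (points), beside the mean of 23 probe sets of other organisms (bars), with heat-selected lines left of control lines. The points move with the bars from line to line.

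Factors that assemble, regulate or attach to the proteasome were lower for 7 of 11 measured (63.6%), with a median difference of -0.083. Over all features 46.3% were lower, and 64.8% of those in the brightness range of the standard subunits. Of the 11 factors 0 passed at an adjusted p under 0.05. At an unadjusted p under 0.05 there was 1 lower gene, where 3.97% of all features were lower at that p. That was Pomp, which helps the core mature, with levels of 8.90, 8.46, 8.43, 8.28 and 8.46 in the heat-selected lines, against 9.14, 8.82, 8.69, 8.79 and 8.71 in the control lines. Heat-selected lines 2 to 5 lay below every control line, and line 1 of each group was the highest of its group. The difference was -0.32 ± 0.12 (SE, unadjusted p = 0.0225, adjusted p = 0.415 from limma). The transcription factor gene cnc, the fly relative of the factors that induce proteasome genes under stress, differed by -0.13 ± 0.068, and its inhibitor Keap1 by -0.12 ± 0.093. The lid subunit Sem1, which the naming pattern does not cover, differed by -0.083 ± 0.077.

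Of 21 measured genes that supply, attach or remove ubiquitin or bring substrates to the proteasome, 14 were lower (66.7%). Lower means were found for 46.3% of all features and for 64.8% of those in the subunits' brightness range. The median of the 21 was -0.057, and 0 of them passed at an adjusted p under 0.05. At an unadjusted p under 0.05 there were 2 lower and 1 higher (3.97% and 5.55% of all features). Rad23, a shuttle that carries ubiquitin-tagged proteins to the proteasome, had levels of 10.31, 10.36, 10.36, 10.11 and 10.36 in the heat-selected lines, against 10.37, 10.46, 10.60, 10.55 and 10.49 in the control lines. Every heat-selected line lay below every control line, which 0.785% of all features did, and the difference was -0.19 ± 0.073 (SE, adjusted p = 0.409 from limma). Npl4, which with the ATPase TER94 extracts tagged proteins from membranes and complexes, had levels of 9.57, 10.22, 10.25, 10.49 and 10.09 in the heat-selected lines, against 9.68, 9.59, 9.84, 9.75 and 9.92 in the control lines. Heat-selected lines 2 to 5 lay above every control line and line 1 below all, and the difference was 0.37 ± 0.15. The ubiquitin-like gene Nedd8 differed by -0.17 ± 0.070.

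The COP9 signalosome is a complex built on the same plan as the lid that removes Nedd8 from ubiquitin ligases. It was lower for 4 of 8 measured genes, beside 46.3% of all features, with a median of 0.0036. No gene was at an unadjusted p under 0.05, where 9.52% of all features were. CSN8, CSN7 and CSN4 had the smallest p-values, with differences of -0.19 ± 0.14, 0.078 ± 0.090 and -0.045 ± 0.067 (SE).

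Marker genes of muscle, of the eggshell and of the germline were measured beside the proteasome, and 0 of them passed at an adjusted p under 0.05 (smallest adjusted p = 0.232 from limma). At an unadjusted p under 0.05, 17 muscle genes were higher (5.55% of all features), and 10 yolk and eggshell genes and 4 germline genes were lower (3.97% of all features). Muscle genes had higher means for 20 of 20 measured, with a median of 0.82 and summed intensities of 20397 to 37401 in heat-selected and 10411 to 21048 in control lines. Yolk and eggshell genes had lower means for 17 of 17, with a median of -0.57 and sums of 92461 to 148451 in heat-selected and 139488 to 169653 in control lines. Female germline genes had lower means for 22 of 26, with a median of -0.078 and sums of 35292 to 39009 in heat-selected and 36572 to 42768 in control lines. Over all features 46.3% had a lower mean. No marker was at 0, since the lowest value of the table was 0.830. With group means removed, the mean of the standard subunits correlated over the 10 lines with that of the muscle genes at r = -0.14, with yolk and eggshell genes at -0.20, with germline genes at 0.10 and with testis genes at 0.78. The mean of the probe sets of other organisms gave r = 0.83. Over the 8 lines without line 1 these were -0.77 for muscle, 0.24 for yolk and eggshell, -0.54 for the germline, 0.66 for testis genes and 0.69 for probe sets of other organisms. Control line 2 had the lowest mean of the muscle genes (-1.20) and the highest of the standard subunits (0.11). Values of r without that line were not computed. The part of these tissues and of the floor of the arrays in the differences of the subunits was not tested.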

How the data were processed

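Total RNA of whole females was measured on 10 one-colour arrays, 5 heat-selected and 5 control lines, grouped by sample title. The authors deposited linear intensities summarised per probe set by GCRMA, as named in the submitters' processing notes, with the version not given in the sources used here. GCRMA corrects background by probe sequence and normalizes between arrays. It pulls dim probe sets to a common floor, and its normalization assumes that most transcripts do not differ.

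Values were taken as log2(intensity + 1), a scale that understates changes of dim genes. Features above 3 on at least 5 arrays were kept, with the probe set of highest mean for each gene. Heat-selected and control lines were compared by limma (version 3.58.1, R 4.3.3; lmFit, eBayes, two-sided, Benjamini-Hochberg over 10960 features, threshold 0.05). Simulated data for this comparison over 10960 features checked the test, which recovered 71.6% of genes changed 1.5-fold and 95.5% of those changed 2-fold. The simulated noise was independent between genes, while genes on the real arrays varied together by line. The share recovered there may therefore differ. The number of arrays limits the precision. Genes were named from a platform annotation, with 12444 of 14010 probe sets naming 1 gene, 327 several and 1239 none.

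Members, lists and the rule for named genes were chosen with earlier results of these data known. The rule named the 3 subunits with the smallest p in each ring, the base and the lid, the catalytic subunits, ubiquitin receptors and Rpn11 whatever their values, the paralogues past the filter, 3 genes from each further list and the 10 features most like the subunits; rngo, Sem1 and the extremes named by line were added after their values were seen. Alternatives covered pseudocount, filter, normalization, probe set choice, variance model, line number as a block, 3' excess and lines left out.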

Additional observations from a re-analysis of the deposited data

Results flagged for a closer look

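In 56 groups of 5 lines that were looked at, 4 held a line with a gap to the others that passed Dixon's 95% criterion, and chance gives about 1 in 20. Control line 2 was high for Prosbeta3 (11.08, where the other controls lay between 10.85 and 10.88) and for Prosbeta2 (11.41, others 11.24 to 11.27). Control line 1 was low for Prosbeta4R1 (3.40, others 3.75 to 3.86). The mean of the standard subunits was low in heat-selected line 1 (-0.12, others -0.017 to 0.020).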

How the results depend on the processing

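The median differences of the standard subunits and of the core, base and lid stayed below 0 under every alternative run, and 0 standard subunits reached an unadjusted p under 0.05 in any of them. The filters, the variance model and the block by line number left every subunit's difference as it was, so they were no check of the medians. With 1 line left out, the median of all standard subunits ran from -0.062 (without heat-selected line 4) to -0.025 (without heat-selected line 1), and that of the lid from -0.11 (without control line 1) to -0.013 (without control line 2). The number of subunits with a lower mean ran from 18 without heat-selected line 1 to 25, and was 15 without lines 1 and 2 of both groups, a count added after seeing the data. Over all features, 1043 were at an unadjusted p under 0.05, 1580 without lines 1 and 2 of both groups. With line number as a block 2 features passed at an adjusted p under 0.05 and 1467 at an unadjusted p under 0.05. Each line number occurs once in each group, so the block could not change a difference, and the unchanged medians were fixed in advance. With 1 line left out 0 to 3 features passed. Lines of the same number correlated in their deviations from the group means at r = 0.55, 0.21, 0.20, 0.35 and 0.027 for numbers 1 to 5 over all features, and at 0.77, 0.22, 0.40, 0.33 and 0.54 over the standard subunits. Over all features 5 of 10 lines correlated best with the line of their own number. The labels name no shared origin and number 5 did not correlate above 0.1 over all features, so the fit without the block is the one reported. No standard subunit passed with the block or with 1 line left out.

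Several single genes, none of them called, changed sign. Rpt3R gave -0.00011 with a pseudocount of 8, -0.024 with quantile normalization, -0.0072 with arrays centred on their medians and -0.012 with the 3' excess as a covariate. Rpn13R gave -0.0053 with quantile normalization, and Prosbeta5 gave 0.0094 with the covariate. Without line 1 of both groups Rpt3 was 0.0050, Prosbeta5 0.016, Rpn1 0.0087, Rpn13 0.0016, Rpt4R -0.026 and Rpt3R -0.016. Without lines 1 and 2 of both groups Prosalpha6 was 0.054, Prosbeta2 0.014, Rpt3 0.014, Rpn12 0.0010, Prosbeta5 0.051, Rpn1 0.050 and Rpn13 0.0073. With 1 line left out, Prosalpha6 ran from -0.23 to 0.027, Prosalpha4 from -0.090 to 0.0026, Prosbeta5 from -0.038 to 0.043, Rpn1 from -0.088 to 0.016, Rpn13 from -0.068 to 0.019 and Rpn11 from -0.12 to 0.0044. Among paralogues Rpn13R ran from -0.015 to 0.066, Rpt4R from -0.022 to 0.090, Prosbeta4R1 from -0.034 to 0.10, Prosbeta4R2 from -0.029 to 0.088, Prosalpha6T from -0.031 to 0.079 and Rpt3R from -0.044 to 0.028. The cause of these changes was not tested. No paralogue passed a filter of log2 above 5, so that setting gave them no value.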
